A study of Mus musculus with 8 samples.

Results

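The 9 genes *Prdm1*, *Batf*, *Irf4*, *Maf*, *Gata3*, *Rora*, *Tbx21*, *Ahr* and *Id2* encode transcription factors of effector Tregs and of the helper T cell lineages. They were taken by name from the 20172 genes of the table, and all 9 had a row and passed the filter on low values, among 13990 genes tested. The cells were Tregs from spleens of adult female mice of the genotype Foxp3 YFP-cre, in which the Foxp3 locus drives a yellow fluorescent protein fused to Cre recombinase. YFP+ CD4 T cells were sorted into TNFR2+ and TNFR2- Tregs, no treatment is named in the labels, and each population gave 4 libraries of total RNA. The reporter allele is shared by both populations, so that they differed by the surface receptor used for sorting. The number of mice named for the sort equals the number of libraries of a population, but the labels tie no library to a single mouse, so p-values measure the spread between these libraries, which may be technical. The question was which of these factors differ in RNA level between the populations.

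These factors act in a layered way. IRF4 and BATF bind DNA together, BATF as a basic leucine zipper protein paired with a JUN partner, and they drive the step from resting to effector Treg. BLIMP1, the product of *Prdm1*, is a zinc finger repressor that marks effector Tregs and is known to accompany their IL-10 production. c-MAF, GATA3, RORα and T-bet (the product of *Tbx21*) are the factors that helper T cells use for their cytokine programs, and Tregs borrow them in tissues where the corresponding response is under way. AHR is a ligand-activated factor that senses dietary and microbial compounds, and ID2 has no DNA-binding region and holds E proteins away from DNA.

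The promoters of *Prdm1*, *Batf* and *Irf4* are shown because these 3 genes form the core of the effector Treg program. Each sequence runs from 250 bases before to 50 bases after the start of the RefSeq transcript (build GRCm38.p6), 5′ to 3′ on the gene's strand. *Prdm1* lies at chr10:44458699-44458998 on the minus strand, *Batf* at chr12:85686470-85686769 on the plus strand and *Irf4* at chr13:30748983-30749282 on the plus strand. The annotated *Prdm1* gene reaches upstream to 44528501. Its window therefore covers a start inside the gene, and other starts were not searched. Capitals mark a match on either strand. The search used a loose AP-1 pattern, TGANTCA with any base at N, for sites of BATF and JUN proteins. It also used the IRF repeat (GAAA, any 2 bases, GAAA), the AHR core GCGTG and the NF-κB element (GGGA, any base, TTTCC).
Prdm1: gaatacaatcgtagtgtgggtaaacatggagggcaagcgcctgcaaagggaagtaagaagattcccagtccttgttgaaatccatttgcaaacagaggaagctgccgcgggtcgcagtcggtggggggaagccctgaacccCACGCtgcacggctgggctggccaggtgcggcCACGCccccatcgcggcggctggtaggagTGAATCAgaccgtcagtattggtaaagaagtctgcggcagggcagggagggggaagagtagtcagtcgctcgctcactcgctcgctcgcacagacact
Batf: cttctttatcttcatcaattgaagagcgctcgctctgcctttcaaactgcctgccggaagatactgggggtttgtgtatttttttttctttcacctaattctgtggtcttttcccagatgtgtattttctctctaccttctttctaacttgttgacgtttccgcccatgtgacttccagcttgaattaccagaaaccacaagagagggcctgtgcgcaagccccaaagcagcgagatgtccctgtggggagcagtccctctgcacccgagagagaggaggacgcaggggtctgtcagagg
Irf4: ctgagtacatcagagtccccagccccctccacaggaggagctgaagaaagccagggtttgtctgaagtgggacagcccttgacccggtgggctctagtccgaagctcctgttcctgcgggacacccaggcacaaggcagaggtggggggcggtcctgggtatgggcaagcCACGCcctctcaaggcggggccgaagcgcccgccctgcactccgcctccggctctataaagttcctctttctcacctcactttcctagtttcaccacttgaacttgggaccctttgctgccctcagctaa
The *Prdm1* promoter held a match to the AP-1 pattern, TGAATCA, beginning 48 bases before the start. It held the AHR core on the opposite strand beginning 109 and 77 bases before the start. The *Irf4* promoter held the AHR core beginning 80 bases before the start, and the *Batf* window held no match. RefSeq promoters were found for 7 of the 9 genes, all but *Maf* and *Ahr*. Of these 7, *Prdm1* held a match to the AP-1 pattern, which is in 7.81% of the 32851 promoters. The AHR core was in 3 of them (*Prdm1*, *Irf4* and *Rora*) and is in 32.4% of all promoters. None of the 7 held the IRF repeat (3.44% of promoters) or the NF-κB element (0.411%). These matches describe the letters of the window, and no overlap arose between matches.

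The libraries were first checked against their labels. The normalized counts of a library summed to between 9576920 and 11492762, and the read depth behind them is not given, so that no counting interval can be set. *Tnfrsf1b*, which encodes TNFR2, stood at 1840 to 3148 normalized counts in TNFR2+ Tregs and at 1177 to 1563 in TNFR2- Tregs, without overlap. *Foxp3* stood at 2812 to 3313 and at 3292 to 4033 (log2 fold change −0.23, adjusted p = 0.232 from limma), so that the Treg factor itself did not pass the test. The summed level of 7 Treg markers was 27144 to 30822 in TNFR2+ and 20253 to 24606 in TNFR2- libraries. *Ikzf2* had the highest mean of these markers, at 9763 and 5275. *Il2ra*, like *Foxp3*, had a lower mean in TNFR2+ Tregs. Its values were 2561 to 3070 and 3219 to 3990, without overlap (log2 fold change −0.34, adjusted p = 0.0860 from limma). These are RNA values. By flow cytometry the paper reports more Foxp3 and more CD25, the product of *Il2ra*, in TNFR2+ than in TNFR2- Tregs. Those cells were freshly sorted from another Foxp3 reporter strain. The cause of this difference from the RNA was not tested. Of the markers of other cells, 7 of 9 B cell, 4 of 6 plasma cell, 4 of 10 myeloid, 5 of 8 NK and innate lymphoid, 2 of 2 CD8 T cell and 1 of 3 erythroid genes were in the table. B cell markers summed to 128 to 174 in TNFR2+ and 70.7 to 259 in TNFR2- libraries, myeloid markers to 175 to 222 and 129 to 219, and erythroid markers to at most 12.1 and 10.6. Plasma cell markers summed to 693 to 917 and 654 to 977, most of it *Xbp1*, which many cells use. NK and innate lymphoid markers summed to 685 to 779 and 870.4 to 1116, most of it *Il7r*, which T cells also express. *Pax5*, *Blk*, *Cd79a*, *Fcer2a*, *Sdc1*, *Jchain*, *Derl3*, *Csf1r*, *Fcgr3*, *Klrb1c*, *Zbtb16*, *Cd8a* and *Alas2* were listed at 0 in at least 1 library. The part of other cells in the results below was not tested. In bulk RNA a larger share of cells with a factor and more RNA of it per cell cannot be told apart.

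All 9 factors had a higher mean in TNFR2+ Tregs, and 7 of them rose by the test: *Prdm1*, *Batf*, *Maf*, *Gata3*, *Rora*, *Ahr* and *Id2*. Among the 13990 genes tested, 4.52% were called higher and 3.39% lower in TNFR2+ Tregs. The median log2 fold change of the 9 factors was 1.10, and that of all genes tested was −0.01. *Tbx21* and *Irf4* did not pass. The groups did not overlap in 6 of the 9 factors (*Batf*, *Irf4*, *Gata3*, *Rora*, *Ahr* and *Id2*), against 8.08% of all genes tested being higher without overlap. Scaling of the libraries bears on these counts. Over all genes, 633 were called higher and 474 lower as deposited. When libraries were set to the same summed level of *Cd3e*, *Cd3d* and *Cd3g*, which encode invariant chains of the T cell receptor complex and of which *Cd3e* was itself higher by 0.51 on the log2 scale (adjusted p = 0.00919), 321 were called higher and 2679 lower, and the median of all genes moved to −0.48. Under that scaling 4 of the 9 factors were called higher (*Prdm1*, *Batf*, *Ahr* and *Id2*). All 9 kept a log2 fold change above 0, and their median was 0.62. Such scaling moves the log2 fold changes of all genes by nearly the same amount. The distance of the factors from the median of all genes was therefore fixed in advance.

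**Figure D1:**
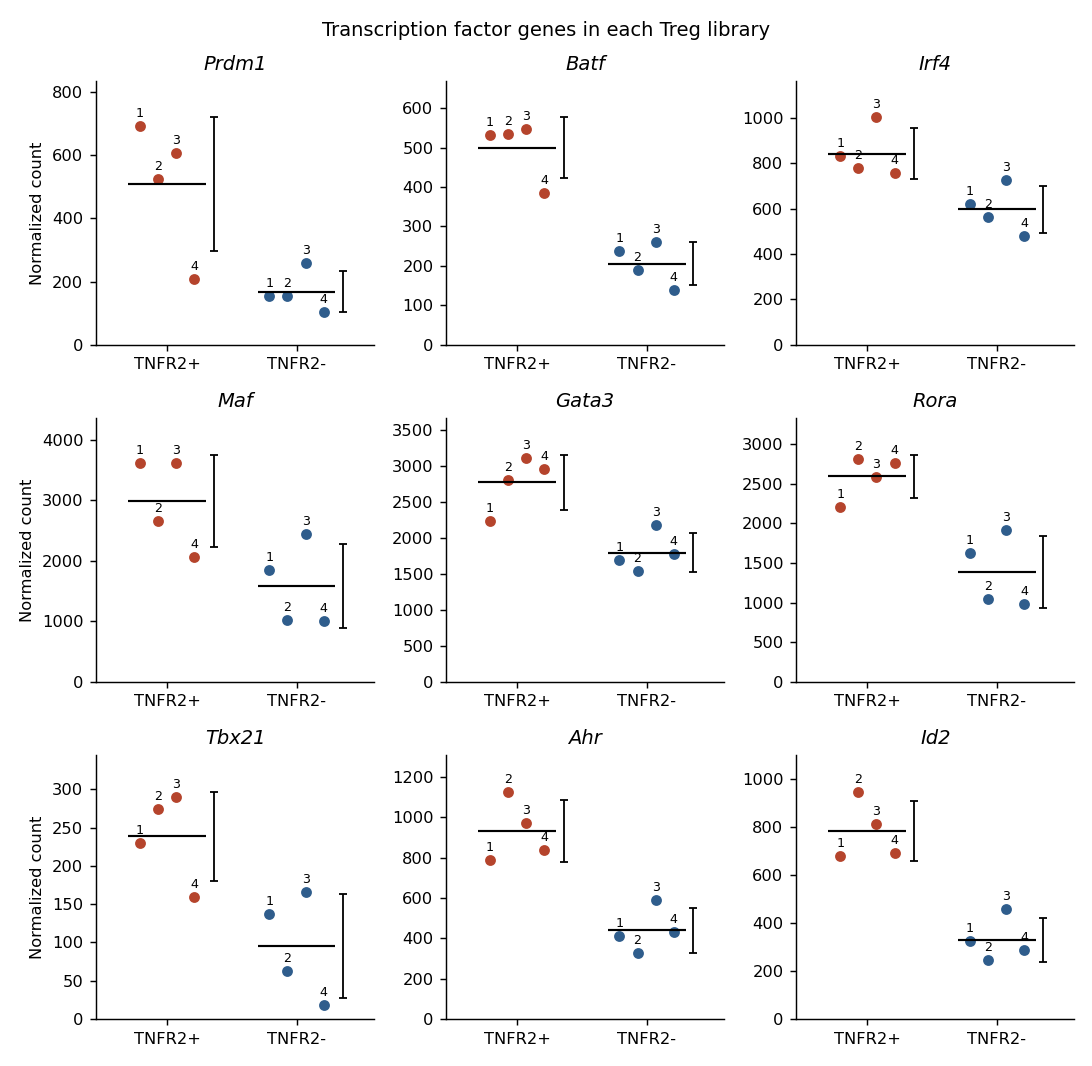
Normalized counts (vertical axis, linear, from 0) of the 9 transcription factor genes in the 4 TNFR2+ (red) and 4 TNFR2- (blue) Treg libraries, with the replicate number above each point, the mean as a horizontal line and the SD as a bar. TNFR2- replicate 3 is the highest blue point in every panel, and red and blue points overlap only in *Prdm1*, *Maf* and *Tbx21*.

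Of the 3 factors of the core effector program, *Prdm1* and *Batf* rose and *Irf4* did not pass the test. *Prdm1* (ENSMUSG00000038151, chromosome 10 of GRCm38, 44437177 to 44528501) had 694, 526, 607 and 207 normalized counts in TNFR2+ replicates 1 to 4, and 155, 154, 258 and 105 in TNFR2- replicates 1 to 4. The first 3 TNFR2+ libraries lay well above every TNFR2- library, while TNFR2+ replicate 4 fell below TNFR2- replicate 3. Its means were 508 ± 212 and 168 ± 64.4 (SD, n = 4 each), a log2 fold change of 1.53 with a standard error of 0.37 (adjusted p = 0.0210 from limma), and the exact two-sided permutation test gave p = 0.0571. *Prdm1* stayed past the threshold in 3 of 8 fits made with 1 library removed each, with log2 fold changes of 1.33 to 1.92 and adjusted p values up to 0.0725. The 5 libraries whose omission lost the call were TNFR2+ replicates 1, 2 and 3 and TNFR2- replicates 2 and 4. It was also lost without the intensity trend (adjusted p = 0.0981).

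*Batf* (ENSMUSG00000034266, chromosome 12, 85686669 to 85709087) had 532, 534, 547 and 384 normalized counts in TNFR2+ Tregs and 237, 188, 260 and 138 in TNFR2- Tregs. TNFR2+ replicate 4 was the low library here too, but it still exceeded all TNFR2- libraries. Its means of 499 ± 77.1 and 206 ± 53.9 gave a log2 fold change of 1.30 with a standard error of 0.23 and a 95% interval of 0.80 to 1.80 (adjusted p = 0.00411 from limma, exact two-sided permutation p = 0.0286, the smallest that 4 libraries against 4 allow). All 8 fits without a library and all 12 alternatives that kept them gave an adjusted p under 0.05.

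*Irf4* (ENSMUSG00000021356, chromosome 13, 30749226 to 30766976) had 831, 779, 1002 and 756 normalized counts in TNFR2+ Tregs and 620, 563, 725 and 477 in TNFR2- Tregs. Every TNFR2+ library was above every TNFR2- library, yet the gap between the groups was small, from 725 to 756. Its means of 842 ± 111 and 596 ± 104 differed by 0.51 on the log2 scale, with a 95% interval of 0.14 to 0.87 (adjusted p = 0.0864 from limma, exact two-sided permutation p = 0.0286). Without TNFR2- replicate 3 *Irf4* passed, with a difference of 0.60 on the log2 scale (adjusted p = 0.0422), and with libraries set to the CD3 genes its log2 fold change was 0.03 (adjusted p = 0.929).

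Because BATF and IRF4 act as partners, their RNAs were also set against each other. The ratio of *Batf* to *Irf4* normalized counts was 0.641, 0.685, 0.546 and 0.508 in TNFR2+ replicates 1 to 4 and 0.381, 0.335, 0.359 and 0.290 in TNFR2- replicates 1 to 4, without overlap. This ratio does not depend on the scaling of the libraries. The ratio of *Prdm1* to *Bach2*, which encodes a repressor that maintains resting Tregs, was 0.263 to 0.727 in TNFR2+ and 0.0570 to 0.203 in TNFR2- Tregs, again without overlap. That of *Prdm1* to *Bcl6*, which encodes the repressor that opposes BLIMP1 in follicular T cells, was 0.279 to 0.921 and 0.233 to 0.333, with overlap. These ratios were chosen after the values were seen and were not tested.

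Among the helper lineage factors, *Maf*, *Gata3* and *Rora* were abundant in both populations and rose in TNFR2+ Tregs, and *Tbx21* was scarce and variable. *Maf* (ENSMUSG00000055435, chromosome 8, 115682942 to 115707794), the factor that supports IL-10 transcription in several T cell subsets, had 3616, 2653, 3616 and 2059 normalized counts in TNFR2+ Tregs and 1845, 1026, 2446 and 1002 in TNFR2- Tregs. TNFR2- replicate 3 reached into the TNFR2+ range. The log2 fold change was 0.99 with a standard error of 0.27 (adjusted p = 0.0431 from limma, exact two-sided permutation p = 0.0571). Its call was the least stable of the 7, since it was kept in 2 of 8 fits without a library, those without TNFR2+ replicate 4 and without TNFR2- replicate 3, with adjusted p values of 0.00739 to 0.131. It was also lost under robust moderation of the variances (adjusted p = 0.0688), without the intensity trend (adjusted p = 0.164) and with the CD3 genes as reference (adjusted p = 0.169).

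*Gata3* (ENSMUSG00000015619, chromosome 2, 9857078 to 9890034), the factor of the Th2 lineage and a factor that Tregs use to stay stable in inflamed tissue, had 2239, 2802, 3115 and 2965 normalized counts in TNFR2+ Tregs and 1691, 1545, 2177 and 1779 in TNFR2- Tregs. The groups did not overlap, with TNFR2+ replicate 1 just above TNFR2- replicate 3. The log2 fold change was 0.63 with a standard error of 0.14 (adjusted p = 0.0159 from limma). It passed in 5 of 8 fits without a library and missed, at adjusted p values of up to 0.0577, without TNFR2+ replicate 2 or 3 or TNFR2- replicate 2. With the CD3 genes as reference the log2 fold change of *Gata3* was 0.15 (adjusted p = 0.523), and without the intensity trend its adjusted p was 0.100. The ratio of *Gata3* to *Foxp3* was 0.796 to 0.940 in TNFR2+ and 0.409 to 0.661 in TNFR2- Tregs, without overlap.

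*Rora* (ENSMUSG00000032238, chromosome 9, 68653786 to 69388246), which encodes a nuclear receptor found in tissue Tregs, Th17 cells and innate lymphoid cells, had 2210, 2817, 2592 and 2766 normalized counts in TNFR2+ Tregs and 1623, 1041, 1919 and 982 in TNFR2- Tregs. The TNFR2+ libraries lay close together, and the TNFR2- libraries spread over a 1.95-fold range. The log2 fold change was 0.95 with a standard error of 0.20 (adjusted p = 0.0104 from limma), and *Rora* passed in all 8 fits without a library. The call was lost without the intensity trend (adjusted p = 0.0851) and with the CD3 genes as reference (log2 fold change 0.48, adjusted p = 0.128).

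*Tbx21* (ENSMUSG00000001444, chromosome 11, 97098071 to 97115331), the factor of the Th1 lineage, had 229, 274, 291 and 160 normalized counts in TNFR2+ Tregs and 137, 62.2, 166 and 17.6 in TNFR2- Tregs. The TNFR2- libraries differed from each other 9.46-fold, and TNFR2- replicate 3 exceeded TNFR2+ replicate 4. *Tbx21* had the highest log2 fold change of the 9, at 1.69, and the widest 95% interval, 0.49 to 2.90 (adjusted p = 0.0832 from limma, exact two-sided permutation p = 0.0571). It passed without TNFR2- replicate 3 (log2 fold change 2.10, adjusted p = 0.0297) and in the fit with replicate numbers as a block (adjusted p = 0.0300). Whether these numbers pair the libraries is not known. Its T-box relative *Eomes* was listed at means of 25.4 and 28.5 normalized counts. The ratio of *Tbx21* to *Gata3* was 0.0539 to 0.102 in TNFR2+ and 0.00987 to 0.0811 in TNFR2- Tregs, with overlap.

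**Figure D2:**
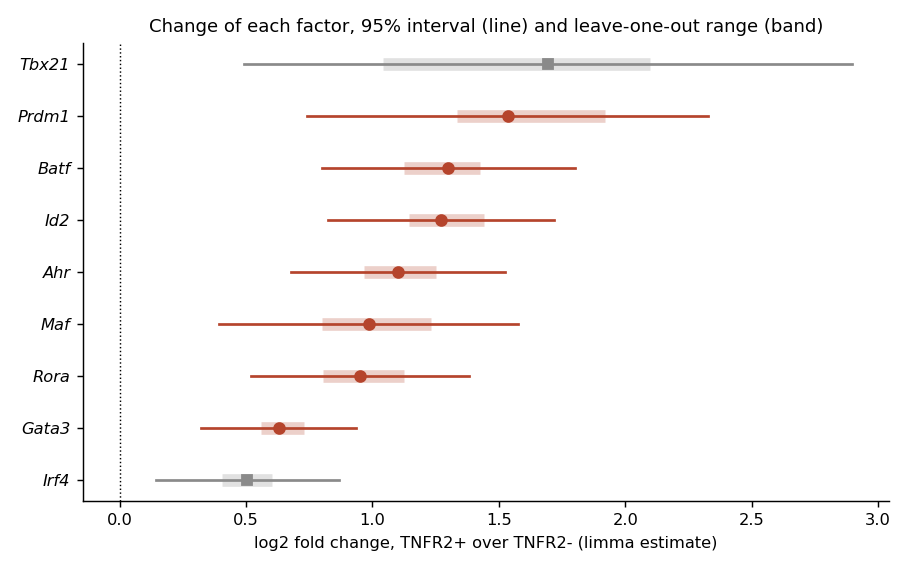
Log2 fold change (horizontal axis, TNFR2+ over TNFR2-) of each factor as estimated by limma, with its 95% interval as a thin line and, as a pale band, the range over the 8 fits without a library. Red circles passed the adjusted threshold and grey squares (*Tbx21* and *Irf4*) did not, and all estimates and intervals lie above 0.

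The environmental sensor and the E protein inhibitor rose under every alternative. *Ahr* (ENSMUSG00000019256, chromosome 12, 35497974 to 35535038) had 789, 1128, 973 and 839 normalized counts in TNFR2+ Tregs and 413, 326, 591 and 430 in TNFR2- Tregs. No library of one group reached the other. The log2 fold change was 1.10 with a standard error of 0.20 (adjusted p = 0.00422 from limma, exact two-sided permutation p = 0.0286). *Ahr* passed in all 8 fits without a library and in all 12 other alternatives.

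*Id2* (ENSMUSG00000020644, chromosome 12, 25093799 to 25097140) had 677, 948, 814 and 691 normalized counts in TNFR2+ Tregs and 325, 246, 457 and 289 in TNFR2- Tregs. The lowest TNFR2+ library was well above the highest TNFR2- library. The log2 fold change was 1.27 with a standard error of 0.21 (adjusted p = 0.00246 from limma, exact two-sided permutation p = 0.0286), and this was the lowest adjusted p of the 9 factors. It too passed in all 8 fits without a library and in all 12 other alternatives. Among the 9 factors, *Ahr* and *Id2* were the pair with the most similar profiles. Among 9203 protein-coding genes with a mean of at least 50, the gene nearest to *Ahr* over the 8 libraries was *Id2*, and the gene nearest to *Id2* was *Ahr*, at a root-mean-square difference of 0.11 on the centred log2 scale, against medians over the candidates of 0.69 for *Ahr* and 0.77 for *Id2*. This likeness includes the difference between the groups, and no test was made of it.

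By the same measure the nearest gene to *Batf* was *Sec14l1*, to *Irf4* *Eprs*, to *Maf* *Trp53inp1*, to *Gata3* *Ephx1*, to *Rora* *Tnfsf10*, to *Prdm1* *Tspoap1* and to *Tbx21* *Slc7a10*. These differences were 0.10 for *Batf*, 0.08 for *Irf4*, 0.12 for *Maf*, 0.09 for *Gata3*, 0.11 for *Rora*, 0.31 for *Prdm1* and 0.25 for *Tbx21*. The differences of *Prdm1* and *Tbx21* were the largest. Their medians over the candidates were also the largest, at 1.02 and 1.30, against 0.48 to 0.79 for the other factors. *Batf* was the nearest of the other 8 factors to *Prdm1*, *Maf* and *Tbx21*, and *Irf4* and *Gata3* were nearest to each other.

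Levels were compared between genes per kilobase of annotated exons, since longer genes collect more reads. On this scale *Gata3* was highest in both populations, with a mean of 699 normalized counts per kilobase in TNFR2+ and 452 in TNFR2- Tregs. *Maf*, *Batf* and *Id2* followed at 362, 355 and 321 in TNFR2+ Tregs and 192, 146 and 135 in TNFR2- Tregs, with ranges that overlap one another in each population. *Rora*, *Irf4* and *Ahr* came next in TNFR2+ Tregs, at 199, 172 and 151 with overlapping ranges, and in TNFR2- Tregs *Irf4* (122) stood before *Rora* (106) and *Ahr* (71.4). *Tbx21* (95.8 and 38.5) and *Prdm1* (91.1 and 30.1) were lowest, with ranges that overlap each other. In TNFR2+ Tregs the ranges left gaps below *Gata3*, below *Id2* and above *Tbx21*, and in TNFR2- Tregs only below *Gata3*. Measured against the longest transcript in place of all exons, the means exchanged the places of *Maf* and *Batf* and of *Tbx21* and *Prdm1* in TNFR2+ Tregs, and of *Irf4* (125) and *Rora* (128) in TNFR2- Tregs.

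**Figure D3:**
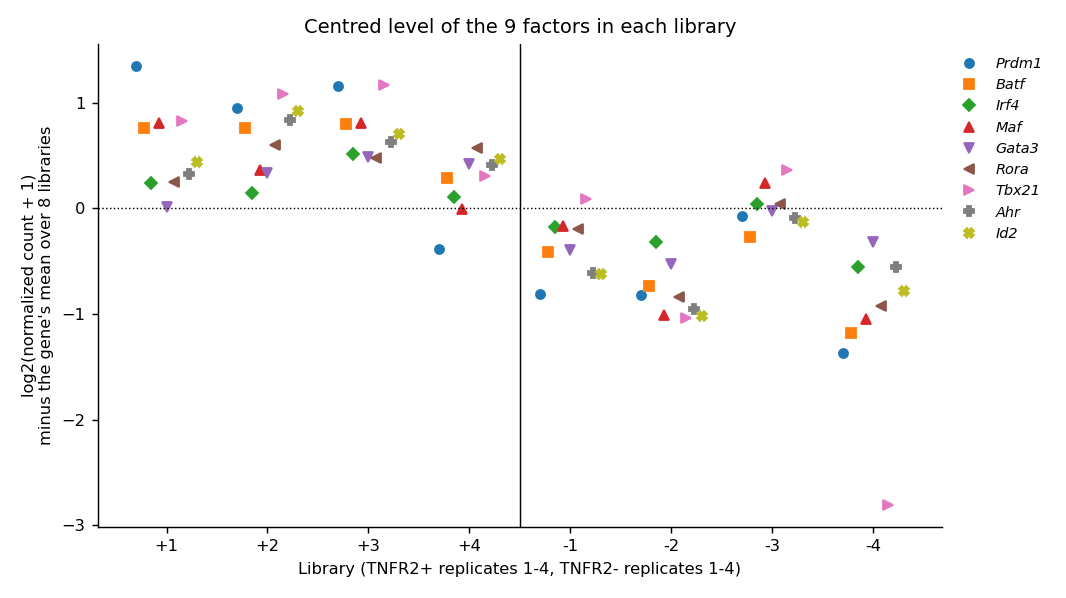
Log2(normalized count + 1) of each factor minus its own mean over the 8 libraries (vertical axis) for TNFR2+ replicates 1 to 4 (left) and TNFR2- replicates 1 to 4 (right), with 1 symbol per gene. The points of TNFR2- replicate 3 are the highest of the right side for every gene, and *Tbx21* in TNFR2- replicate 4 (17.6 normalized counts) is the lowest point.

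The factors shared an order among the TNFR2- libraries that the group labels do not give. TNFR2- replicate 3 was the highest TNFR2- library for all 9 factors. That library was the highest of the 4 in 28.6% of all genes tested and in 42.0% of the 633 genes called higher in TNFR2+ Tregs. TNFR2- replicate 4 was the lowest for 6 of the 9 factors (*Prdm1*, *Batf*, *Irf4*, *Maf*, *Rora* and *Tbx21*) and replicate 2 for the other 3 (*Gata3*, *Ahr* and *Id2*). Replicate 4 was the lowest in 25.9% of all genes tested and in 35.5% of the genes called higher. *Tnfrsf1b* did not follow this order, since TNFR2- replicate 3 had its lowest value of all libraries, 1177 normalized counts. Without TNFR2- replicate 3 all 9 factors passed the test and their median log2 fold change was 1.25, while the number of all genes called was 1324 against 1107. In the TNFR2+ group replicate 3 was the highest library for 5 factors and replicate 4 the lowest for 5. The spread of log2 values was larger in TNFR2- than in TNFR2+ Tregs for 7 of the 9 factors, the exceptions being *Prdm1* and, by a small margin, *Gata3*, and for 59.0% of all genes tested.

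Partners, relatives and target genes of the 9 factors were then compared through 10 lists. These held 120 genes, of which 97 were tested, 15 were called higher and 12 lower. *Ccr8* and *Id3* were in 2 lists each and counted once. No gene of the lists of closest relatives was called higher. Over all genes tested, 4.52% were called higher and 3.39% lower, so lists this short would hold few genes called higher at that share. Of 15 tested AP-1 and IRF relatives, 0 were called higher and 4 lower, with a median log2 fold change of −0.41. *Jun*, which encodes a partner that BATF can bind, fell by 1.17 on the log2 scale, from 24158 ± 5387 in TNFR2- to 10708 ± 2347 in TNFR2+ Tregs (adjusted p = 0.00119 from limma). *Fos* fell by 0.69 (adjusted p = 0.00663), *Irf1* by 0.57 (adjusted p = 0.0194) and *Jund* by 0.51 (adjusted p = 0.0459, passing in 1 of 8 fits without a library). *Junb*, which encodes the JUN partner needed for effector Tregs, stood at −0.18 on the log2 scale (adjusted p = 0.218). The ratio of *Batf* to *Junb* was 0.0189 to 0.0270 in TNFR2+ and 0.00558 to 0.0112 in TNFR2- Tregs. Among 14 tested MAF, GATA, ROR and PRDM relatives 0 were called higher and 3 lower, which were *Maff* at −0.89 (adjusted p = 0.00594), *Prdm2* at −0.41 (adjusted p = 0.0376) and the meiotic gene *Prdm9* at −1.37 (adjusted p = 0.0315). *Prdm2* and *Prdm9* passed in 2 and 1 of the 8 fits without a library.

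**Figure D4:**
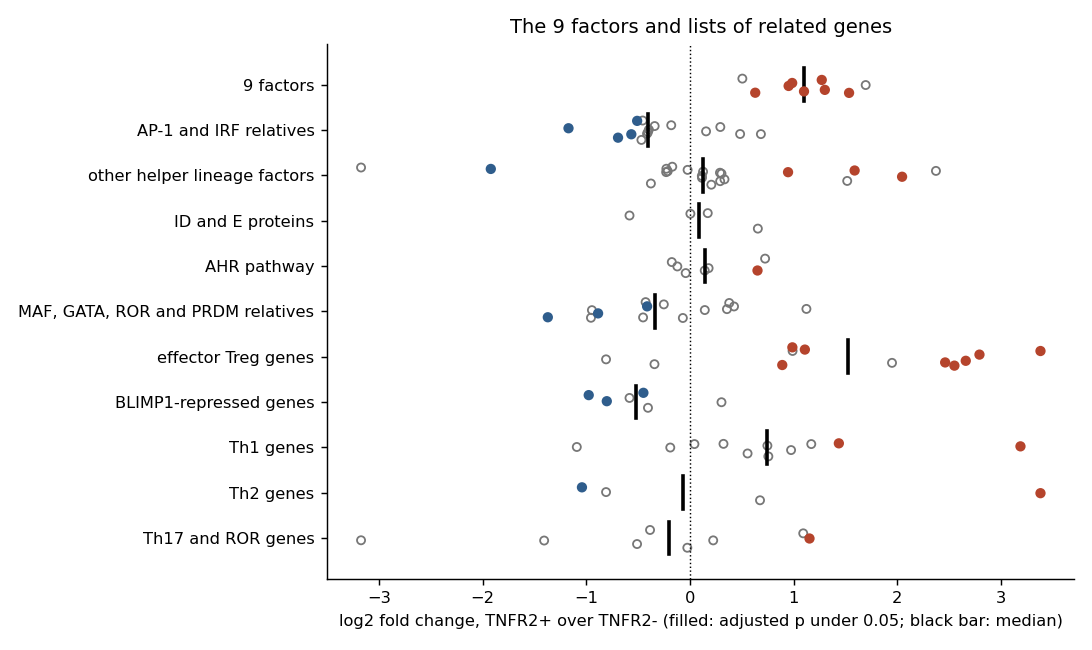
Log2 fold change (horizontal axis, TNFR2+ over TNFR2-) of the tested genes of each list, with filled points for genes with an adjusted p under 0.05 (red higher, blue lower), open points for the others and a black bar for the median. The 9 factors (median 1.10) and the effector Treg genes (1.53) lie mostly to the right, and the AP-1 and IRF relatives (−0.41) and BLIMP1-repressed genes (−0.52) mostly to the left.

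Of 21 other helper lineage factors tested, 3 were higher, 1 was lower and 17 did not pass, with a median of 0.13. The higher genes were *Bhlhe40*, a factor linked to cytokine control and tissue residency, at 2.05 (adjusted p = 0.00113), *Nfil3*, a repressor induced with Treg activation, at 1.59 (adjusted p = 0.00100) and *Ikzf2*, which encodes Helios, at 0.95 (adjusted p = 0.0145). *Satb1*, which encodes a chromatin organizer of naive T cells, fell by 1.92 on the log2 scale (adjusted p = 1.08e-04). *Bcl6*, which encodes the factor of follicular helper T cells, differed by 0.30 on the log2 scale (adjusted p = 0.325).

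None of the 4 tested ID and E protein genes passed the test, and 1 of 7 tested genes of the AHR pathway did. *Id3*, the relative of *Id2* that marks less differentiated T cells, had 113 ± 57.1 normalized counts in TNFR2+ and 148 ± 34.1 in TNFR2- Tregs (log2 fold change −0.58, adjusted p = 0.480). *Tcf3*, which encodes the E proteins that ID2 binds, differed by 0.17 on the log2 scale (adjusted p = 0.696), and the ratio of *Id2* to *Tcf3* was 0.796 to 1.06 in TNFR2+ and 0.219 to 0.751 in TNFR2- Tregs. *Arnt*, the obligate partner of AHR, had 833 ± 74.2 and 741 ± 115 normalized counts (log2 fold change 0.18, adjusted p = 0.543), and the ratio of *Ahr* to *Arnt* was 0.913 to 1.51 in TNFR2+ and 0.439 to 1.02 in TNFR2- Tregs, overlapping through TNFR2- replicate 3. The AHR target genes *Tiparp* (log2 fold change −0.18, adjusted p = 0.542) and *Ahrr* (−0.12, adjusted p = 0.908) did not pass, and *Hif1a*, another partner of ARNT, was higher at 0.65 (adjusted p = 0.0355, in 2 of 8 fits without a library).

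**Figure D5:**
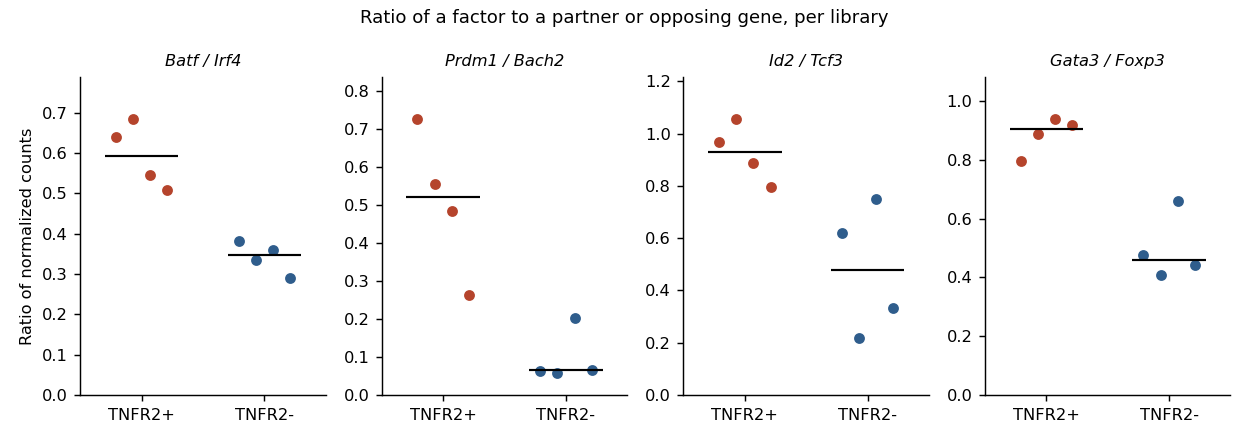
Ratio of normalized counts (vertical axis, linear, from 0) of *Batf* to *Irf4*, *Prdm1* to *Bach2*, *Id2* to *Tcf3* and *Gata3* to *Foxp3* in the 4 TNFR2+ (red) and 4 TNFR2- (blue) libraries, with the median of each group as a line. In each of the 4 ratios the lowest red point is above the highest blue point.

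Genes that these factors are known to act on, or that are used with them, made up the last 5 lists. Of 12 tested effector Treg genes 8 were higher and 0 lower, with a median log2 fold change of 1.53. *Ccr8*, a chemokine receptor of tissue Tregs, was at 3.38 (adjusted p = 7.22e-04), *Il10* at 2.79 (adjusted p = 0.0121), *Ebi3*, a chain of IL-35, at 2.66 (adjusted p = 0.00398) and *Tigit*, an inhibitory receptor, at 2.55 (adjusted p = 0.00482). *Il1rl1*, which encodes the IL-33 receptor and depends on GATA3 in Th2 cells, was at −0.81 (adjusted p = 0.205). Levels of *Il10* were low, at 86.3 to 203 normalized counts in TNFR2+ and 4.16 to 39.3 in TNFR2- Tregs. These values are RNA and do not measure the cytokine. The paper reports less IL-10 protein in TNFR2+ than in TNFR2- Tregs after restimulation in culture. Why RNA and protein differed in direction was not tested. Of 6 tested genes that BLIMP1 represses, 3 were lower and 0 higher, with a median of −0.52. These were *Bach2* at −0.98 (adjusted p = 0.0188), *Ccr7* at −0.80 (adjusted p = 0.0109) and *Tcf7* at −0.45 (adjusted p = 0.0268), of which *Bach2* passed in 4 and *Tcf7* in 2 of the 8 fits without a library.

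Of 11 tested Th1 genes 2 were higher and 0 lower, with a median of 0.75. *Cxcr3*, a T-bet target that guides Tregs to Th1 inflammation, was at 1.44 (adjusted p = 0.00191) with 361 ± 24.9 against 136 ± 31.9 normalized counts. *Nkg7*, which encodes a granule protein, was at 3.19 (adjusted p = 0.00927). Its levels were low, at 49.2 to 92.3 normalized counts in TNFR2+ and 2.03 to 18.4 in TNFR2- Tregs. *Ifng* was at 0.76 (adjusted p = 0.207). Of 4 tested Th2 genes *Ccr8* was higher and *Il4ra*, the IL-4 receptor chain, was lower at −1.04 (adjusted p = 0.00395), and *Il4* and *Il13* were below the filter on low values. Of 8 tested Th17 and ROR genes only *Ccr6*, a chemokine receptor shared by Th17 cells and effector Tregs, passed, at 1.14 (adjusted p = 0.0285, in 2 of 8 fits without a library).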

How the data were processed

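RNA was extracted from sorted TNFR2+ and TNFR2- Tregs, 4 libraries each, prepared with a stranded total RNA kit and sequenced by the authors. Per the methods and the submitters' processing notes, they checked reads with FastQC 0.11.8, trimmed them with Trim Galore, quantified transcripts with Salmon 1.3.0 on the GRCm38 transcriptome and normalized gene values with DESeq2 1.28 in R 4.0. The deposited values are this normalized signal per gene on a linear scale, not whole counts, so a count model could not be fitted. The step from transcripts to genes, any gene filter and the read depth are not given in the sources used here. Salmon shares reads among transcripts by estimation, so low values are less certain.

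Symbols, coordinates and exon lengths came from GENCODE M21 (GRCm38), which matched 20008 of 20172 identifiers. Genes with a mean of at least 10 were tested on log2(normalized count + 1) with limma 3.58.1 in R 4.3.3 (intensity trend, two-sided, Benjamini-Hochberg over 13990 genes, threshold 0.05), and fold changes of low genes are understated by the pseudocount. For single genes, all 70 relabellings of the libraries gave an exact two-sided permutation p (scipy 1.17.1). The procedure was tested on simulated data. Alternatives were pseudocounts of 0.5 and 5, no filter, a mean of at least 50, other moderation, other scaling, protein-coding genes only, array weights, the replicate block and leaving out each library. No near-identical transcripts of other genes were found for the 9 factors at 95% identity over at least 50% of a transcript (blastn). Exons of *Maf*, *Rora*, *Gata3* and *Ahr* overlap antisense genes, of which *Gm15655* at *Maf* had a mean of 9.93 normalized counts. Named genes are the 9 factors, genes of lists that passed or that are partners or relatives, and the single gene nearest in profile to each factor. The factors, lists and motifs were chosen with earlier results of these data known. Plots were drawn with matplotlib 3.10.9.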

Additional observations from a re-analysis of the deposited data

Results flagged for a closer look

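1 of 18 groups of 4 libraries had a library far from the rest by Dixon's ratio, which chance alone gives in about 1 of 20 groups. This was *Batf* in TNFR2+ Tregs, where replicate 4 had 384 normalized counts against 532 to 547 in the other 3 libraries. Its value was still above all 4 TNFR2- libraries. Replicate 4 was the lowest TNFR2+ library for 5 of the 9 factors.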

How the results depend on the processing

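All 9 factors kept a log2 fold change above 0 in all 12 alternatives that kept every library and in the 8 fits without a library, and *Batf*, *Ahr* and *Id2* passed the test in each of them. Moderation without an intensity trend called 465 genes against 1107, 3 of the 9 factors against 7, and 12 of the related genes against 27, with an adjusted p of 0.0981 for *Prdm1*, 0.164 for *Maf*, 0.100 for *Gata3* and 0.0851 for *Rora*. Scaling to the CD3 genes called 3000 genes, 4 factors and 42 related genes, with the calls of *Maf*, *Gata3* and *Rora* (adjusted p = 0.128) lost. Without a library each in turn, 636 to 1324 genes, 4 to 9 factors and 16 to 27 related genes were called, in fits with fewer samples. The factors called were fewest, 4, without TNFR2+ replicate 2 or 3 or without TNFR2- replicate 2. Over all genes tested, deviations of same-numbered libraries correlated between −0.04 and 0.00 in 4 pairs, so no pairing was seen there. Among the factors, replicate 3 was most often the highest and replicate 4 most often the lowest library in both groups. Whether replicate numbers pair the libraries therefore stayed unsettled. The replicate block called 1183 genes, 8 factors and 27 related genes. The cause of these changes was not tested. The unknown read depth limits the low genes, such as *Tbx21* in TNFR2- replicate 4.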
